A study of Rattus norvegicus with 8 samples.

Results

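The MYC and MAX network genes examined here are the 10 genes Myc, Mycn, Mycl1, Max, Mxd1, Mxd3, Mxd4, Mxi1, Mnt and Odc1, which are 10 of the 35561 names that the array lists, found by gene name. They were read by 14 of the 41012 non-control probes, and the brightest probe of each gene stands for it unless another is named. Thymocytes, the developing T cells of the thymus, came from adrenalectomized male Sprague-Dawley rats, and the thymi of 3 rats were pooled for each preparation. The cells were kept in RPMI medium with 10% fetal bovine serum for 6 hours, either with no steroid added (Control, 4 arrays) or with the synthetic glucocorticoid dexamethasone at 100 nM (Dex, 4 arrays). The adrenals, the animal's own source of glucocorticoid, were thus missing in both groups. The study describes 3 biological replicates per group while 4 arrays per group carry its labels, so p-values measure only the spread between these arrays. In whole cultures, fewer cells of a type and less RNA per cell cannot be told apart.

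MYC proteins are transcription factors that bind DNA only when paired with MAX, and the pairs raise genes of ribosome assembly, nucleotide synthesis and the cell cycle. The MXD proteins, MXI1 and MNT compete for MAX, bind the same DNA element (the E-box) and bring in corepressors, so that they oppose MYC. In the thymus MYC is known for the growth of early dividing thymocytes, and Odc1, which encodes the rate-limiting enzyme of polyamine synthesis, is a textbook MYC target.

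Each probe is a 60-base oligonucleotide. Of the 14 probes, 5 cover a stretch of the rn3 genome that is longer than the probe itself, so that their targets join exons of the spliced mRNA. They are shown because the differences described for Max, Mxd1, Mxd3 and Mxi1 rest on these targets alone, while Mxd4 has 2 other probes.
Max probe: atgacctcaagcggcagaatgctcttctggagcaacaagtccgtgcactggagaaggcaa
Mxd1 probe: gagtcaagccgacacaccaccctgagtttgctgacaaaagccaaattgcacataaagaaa
Mxd3 probe: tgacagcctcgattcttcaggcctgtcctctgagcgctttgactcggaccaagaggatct
Mxd4 probe: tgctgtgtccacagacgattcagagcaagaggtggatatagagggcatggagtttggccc
Mxi1 probe: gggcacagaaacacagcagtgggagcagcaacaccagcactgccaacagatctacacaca
The Max probe lies at chr6:99533528-99534805, the Mxd1 probe at chr4:121048954-121050499, the Mxd3 probe at chr17:15349346-15349485, the Mxd4 probe at chr14:82265987-82266511 and the Mxi1 probe at chr1:259722070-259778189. The Max and Mxd1 probes are listed on the minus strand and the others on the plus strand. The Mxi1 target spans 56120 bases of the genome, against 140 bases for the Mxd3 target.

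The slides, the detection and the treatment check bear on all values. Control 1 and Dex 3 shared a slide, Control 2 to 4 shared another and Dex 1, 2 and 4 the last one, so slide and treatment overlap in part. Between 33148 and 34472 probes were well above background on Control 2 to 4, against 28665 on Control 1, between 33284 and 33402 on Dex 3 and 4, and only 24908 to 26471 on Dex 1 and 2. Dex 1 and 2 therefore stood apart from Dex 3 and 4, and the median SD of a probe was 0.50 in Dex against 0.28 in Control on the log2 scale. The 75th percentile of the signal before normalization was instead lowest on Dex 3 and 4, at 266.3 and 263.9 intensity units. It was 317.2 to 427.6 on the other arrays, and which pair of Dex arrays departs was not tested. Of 6 genes known to be raised by glucocorticoids, 5 passed the test, with a median log2 difference of 2.51 over the 6. All 10 markers of double positive thymocytes that could be summed were well above background on every array. Their summed normalized signal, which the brightest markers dominate, was 327227 to 360429 intensity units in Control. It was 345910 and 354461 on Dex 2 and 1, and 256053 and 259773 on Dex 3 and 4. The other marker, Cd8b, lacked a value on Control 1 and was not summed. It was higher in Dex, at 16.4 to 16.5 log2 units against 15.8 to 16.2 on Control 2 to 4 (limma, adjusted p = 0.326). Of the 11 markers, 3 were higher and 8 lower in Dex on average.

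None of the 10 network genes passed an adjusted p of 0.05 in the comparison of Dex with Control, in which 0.778% of all probes passed (limma, Benjamini-Hochberg adjustment over all probes). At an unadjusted p under 0.05, Mycn was lower and Mxd4 was higher in Dex, which is 2 of 10 genes against 10.6% of all probes. The same 2 genes were those whose 4 Dex arrays all lay on 1 side of the 4 Control arrays, against 9.11% of all probes. The signal to noise statistic that the study's methods define, here with p-values from the values of all probes pooled over the 70 assignments of the arrays, which differ from the study's own permutations, also called Mycn and Mxd4 (6.79% of all probes). Of the 10 genes, 7 had a higher and 3 a lower mean in Dex, and their median log2 difference was 0.16 against 0.00 for all probes.

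**Figure D1:**
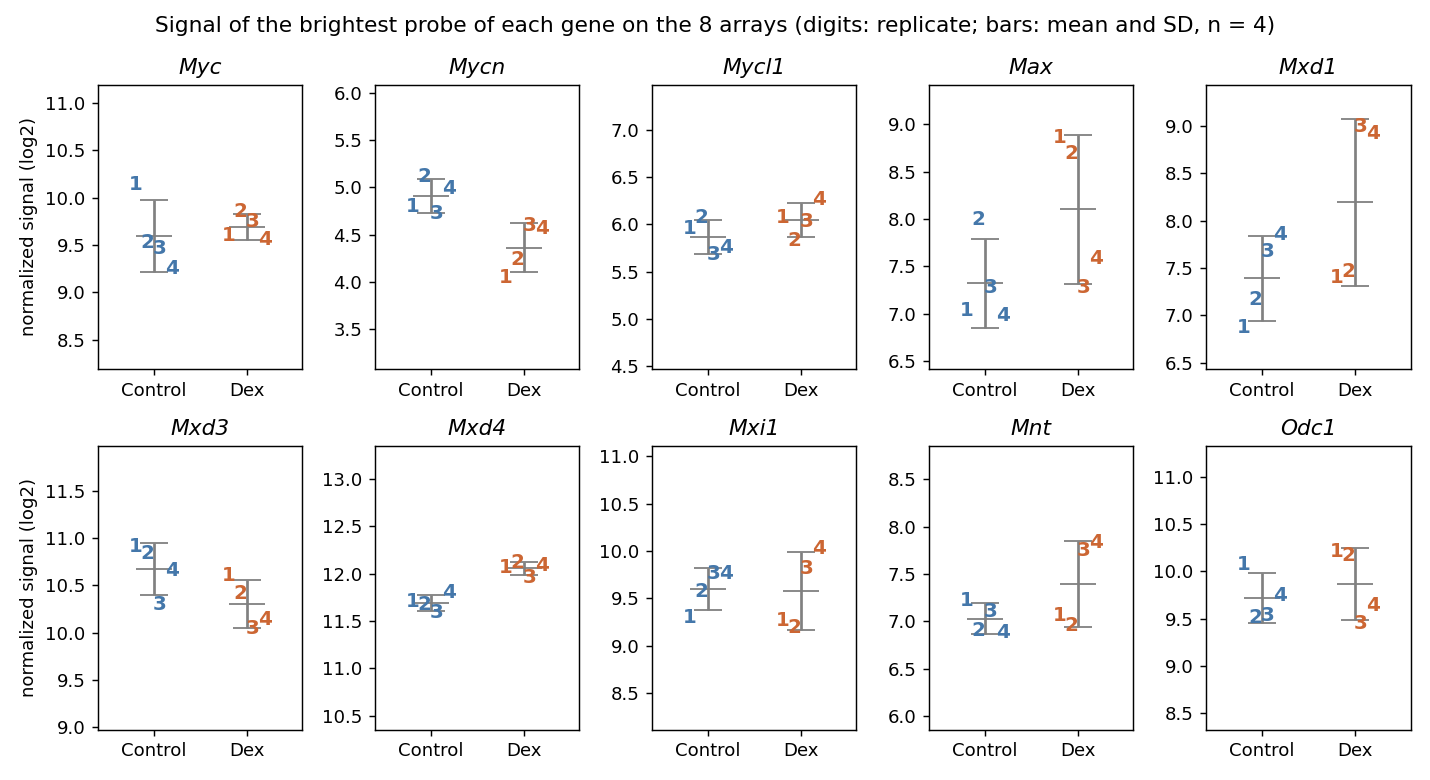
Normalized log2 signal of the brightest probe of each of the 10 genes (vertical axis, with the same span in every panel) in Control and Dex, with each array drawn as its replicate number and bars for the mean and SD of 4 arrays. The Mycn and Mxd4 arrays separate by group, while Max, Mxd1, Mnt, Mxi1 and Odc1 separate Dex 1 and 2 from Dex 3 and 4.

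Myc, the broadly expressed founding member of the family, did not differ between the groups beyond the spread of the arrays. Its normalized log2 signal was 10.14, 9.53, 9.46 and 9.25 on Control 1 to 4 and 9.60, 9.86, 9.75 and 9.56 on Dex 1 to 4. Control 1 was above every other array, the other Control arrays were below all Dex arrays, and the groups overlapped. The means were 9.59 ± 0.38 in Control and 9.69 ± 0.14 in Dex (SD, n = 4 each). The log2 difference was 0.10 with an SE of 0.21 and a 95% interval from -0.40 to 0.59 (limma, adjusted p = 0.911), which is a ratio between 0.76 and 1.51 on the linear scale. The Myc probe (chr7:98991917-98991976, rn3) was printed 10 times per array, and its spots on an array had SDs of 0.0446 to 0.0627 log2 units. Without Control 1 the difference was 0.28 (limma, adjusted p = 0.661), and on the slide that Control 1 and Dex 3 shared it was -0.39.

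Mycn encodes N-MYC, the family member of embryonic and neural tissue. Its brighter probe (chr6:36512147-36512206, rn3) gave 4.80, 5.11, 4.72 and 4.99 log2 units on Control 1 to 4 and 4.05, 4.24, 4.59 and 4.56 on Dex 1 to 4. Every Dex array was below every Control array, with Dex 1 and 2 lowest. The means were 4.91 ± 0.18 in Control and 4.36 ± 0.26 in Dex (SD, n = 4 each), a log2 difference of -0.54 with an SE of 0.19 and a 95% interval from -0.97 to -0.12 (limma, adjusted p = 0.328). The probe was dim, being well above background on all 4 Control arrays and on Dex 3 and 4 but not on Dex 1 and 2. Under another background correction (normexp) the difference was -0.11, and between Dex 3 and Control 1 on their shared slide it was -0.21. The second Mycn probe was not well above background on any array, so no difference is given for it.

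Mycl1, the gene of L-MYC and the remaining MYC paralog, gave 5.96, 6.07, 5.69 and 5.76 log2 units in Control and 6.07, 5.83, 6.03 and 6.26 in Dex. The groups overlapped, with a log2 difference of 0.18, an SE of 0.17 and a 95% interval from -0.20 to 0.56 (limma, adjusted p = 0.768). On the shared slide it was 0.08. No MYC family gene thus passed the test in either direction, and only the interval for Mycn lay to one side of 0.

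Max, the obligate partner of both MYC and its antagonists, varied widely between the Dex arrays themselves. Its log2 signal was 7.03, 7.99, 7.28 and 6.98 on Control 1 to 4 and 8.86, 8.69, 7.28 and 7.58 on Dex 1 to 4. Dex 1 and 2 were above every Control array, while Dex 3 and 4 lay within the Control range. The log2 difference was 0.78 with an SE of 0.41 and a 95% interval from -0.17 to 1.73 (limma, adjusted p = 0.577), so that neither no difference nor a ratio of 3.32 lies outside the interval. The Dex SD of 0.79 was larger than that of 73.0% of all probes. The Dex arrays on which Max was high were those with few probes well above background, while Control 1, also with fewer such probes, had a low Max signal, and the part of detection in this was not tested. When the 3 arrays with under 30000 such probes (Control 1, Dex 1 and Dex 2) were left out, the difference was 0.01 (limma, adjusted p = 0.984), and with their number as a covariate over all 8 arrays it was 0.49 (limma, adjusted p = 0.483). On the shared slide Dex 3 exceeded Control 1 by 0.25.

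Mxd1, whose protein (formerly Mad) replaces MYC on MAX as cells stop dividing and mature, showed the opposite order of Dex arrays. Its log2 signal was 6.87, 7.17, 7.67 and 7.85 on Control 1 to 4 and 7.40, 7.47, 8.996 and 8.92 on Dex 1 to 4. Dex 3 and 4 were above all Control arrays, and Dex 1 and 2 lay among them. The means were 7.39 ± 0.45 in Control and 8.20 ± 0.88 in Dex (SD, n = 4 each). The log2 difference was 0.80 with an SE of 0.44 and a 95% interval from -0.22 to 1.83 (limma, adjusted p = 0.599). Each Dex array exceeded the Control array of the same replicate number, by 0.53, 0.30, 1.32 and 1.07 log2 units for replicates 1 to 4. On the shared slide Dex 3 exceeded Control 1 by 2.12. With the 3 poorly detecting arrays left out, which leaves 3 Control and 2 Dex arrays, the difference was 1.40 and passed the test (limma, adjusted p = 0.0380), as did 11.4% of all probes. In these 5 arrays all Control arrays share a slide that holds no Dex array, so slide and treatment cannot be told apart there. With the number of probes well above background as a covariate it was 1.30 (limma, adjusted p = 0.0454), where 2.66% of all probes passed.

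Mnt, the broadly expressed antagonist that pairs with MAX in resting and in growing cells, followed the same order of Dex arrays. Its log2 signal was 7.22, 6.91, 7.10 and 6.88 in Control and 7.06, 6.95, 7.75 and 7.83 in Dex. Dex 1 and 2 lay within the Control range and Dex 3 and 4 above it. The log2 difference was 0.37 with an SE of 0.24 and a 95% interval from -0.19 to 0.93 (limma, adjusted p = 0.677). Without the 3 poorly detecting arrays it was 0.83 and passed (limma, adjusted p = 0.0391), again with slide and treatment inseparable. With the detection covariate it was 0.55, short of the threshold (limma, adjusted p = 0.164). Leaving out Dex 4 alone gave 0.22. On the shared slide it was 0.52. Both settings that passed Mxd1 or Mnt were chosen after the data had been seen. The summed thymocyte marker signal was also lowest on Dex 3 and 4, and 7 of its 10 markers lay below all Control arrays on both. Cd8b, which was not in the sum, went the other way. It was at 16.49 and 16.43 log2 units on Dex 3 and 4, above Control 2 to 4, and had no value on Control 1. Of 9 macrophage markers, 2 lay above all Control arrays on both Dex 3 and Dex 4 (C1qb and C1qc) and 2 below them (Cd14 and Fcgr1a). Of 9 stromal markers 3 lay above and none below, of 5 B cell markers none above and 2 below, and of 3 erythroid markers none either way. Of all probes 20.2% lay above and 25.8% below all Control arrays on both Dex 3 and Dex 4. The part of these markers in the Mxd1 and Mnt values was not tested.

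**Figure D2:**
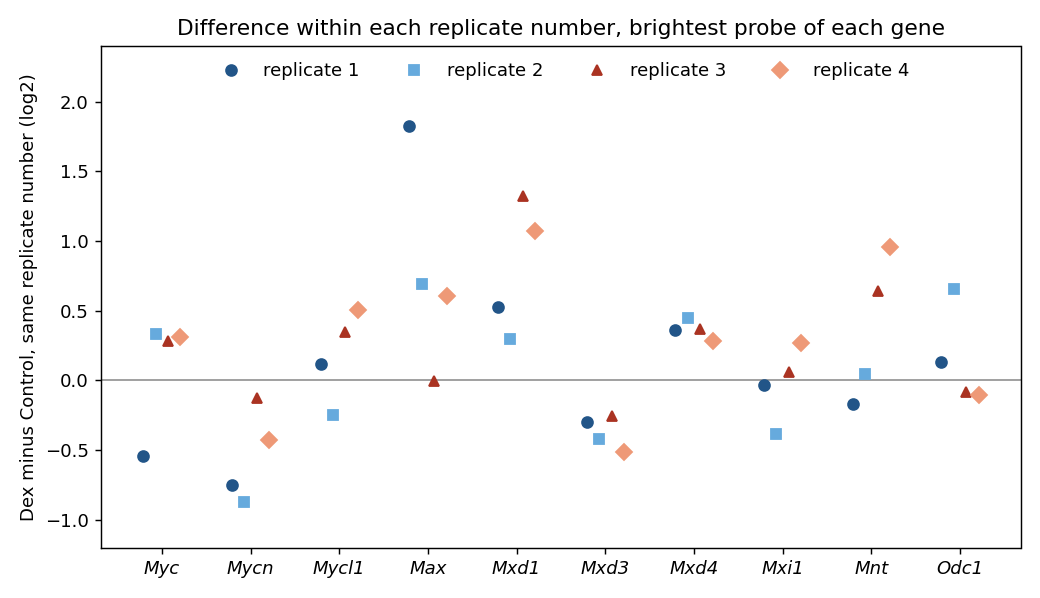
Difference of the log2 signal between the Dex and the Control array of the same replicate number (vertical axis) for the brightest probe of each of the 10 genes, with a marker for each of the 4 replicates. Mxd1 and Mxd4 lie above 0 and Mycn and Mxd3 below 0 in all 4 replicates, while the Max differences run from -0.00 to 1.83.

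Mxd4, a further MXD repressor, had the most even values of all members. Its brightest probe (chr14:82266872-82266931, rn3) gave 11.70, 11.67, 11.59 and 11.80 log2 units on Control 1 to 4 and 12.06, 12.12, 11.96 and 12.09 on Dex 1 to 4. All Dex arrays lay above all Control arrays. The means were 11.69 ± 0.09 in Control and 12.06 ± 0.07 in Dex (SD, n = 4 each), and the Dex SD was below that of all but 2.29% of probes. The log2 difference was 0.37 with an SE of 0.14 and a 95% interval from 0.06 to 0.68 (limma, adjusted p = 0.376), a ratio of 1.29. Both other probes of the gene were also higher in Dex on average, but with overlapping groups. The probe across the exon junction differed by 0.26 (limma, adjusted p = 0.585) and the probe at chr14:82268422-82268481 by 0.24 (limma, adjusted p = 0.741). Each Dex array exceeded the Control array of the same number with each of the 3 probes, though the labels do not say that these were paired. On the shared slide the brightest, the junction and the last probe differed by 0.25, 0.18 and -0.10. Leaving out the 3 poorly detecting arrays kept the brightest probe at 0.34 (limma, adjusted p = 0.184). It took the junction probe to 0.15 (limma, adjusted p = 0.519) and the last probe to -0.04. With the normexp background correction the brightest probe passed at 0.35 (limma, adjusted p = 0.0217), and 2.23% of all probes did.

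Mxd3 is the MXD gene that is expressed in dividing cells, in contrast to its relatives. It gave 10.91, 10.84, 10.30 and 10.66 log2 units on Control 1 to 4 and 10.61, 10.42, 10.05 and 10.14 on Dex 1 to 4. Each Dex array was below the Control array of its number, yet Dex 1 and 2 lay above Control 3, so the groups overlapped. The log2 difference was -0.37 with an SE of 0.20 and a 95% interval from -0.84 to 0.10 (limma, adjusted p = 0.593), and on the shared slide it was -0.86. The summed signal of 17 markers of cycling cells was 68899 to 78985 intensity units in Control and 52559 to 62173 in Dex, without overlap, and its part in the Mxd3 values was not tested. Mxi1, the MXD family member named for its interaction with MAX, gave 9.30, 9.58, 9.76 and 9.76 in Control and 9.27, 9.19, 9.82 and 10.03 in Dex. The Control arrays all lay within the Dex range, with a log2 difference of -0.02, an SE of 0.24 and a 95% interval from -0.56 to 0.52 (limma, adjusted p = 0.984). Dex 3 and 4 were the highest of all arrays for Mxi1 and Dex 1 and 2 the lowest, and on the shared slide the difference was 0.52.

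**Figure D3:**
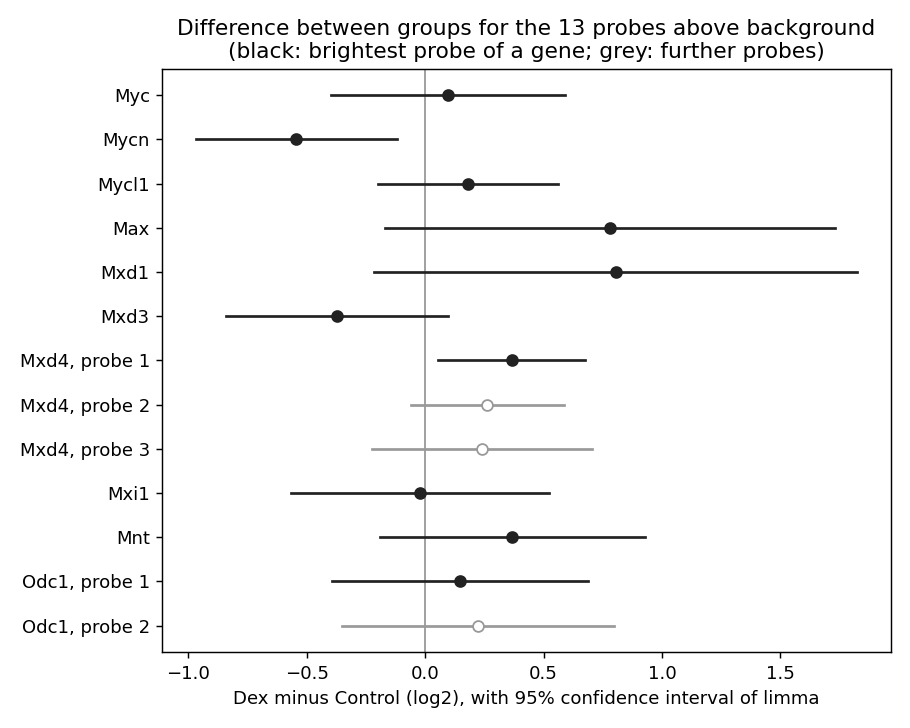
Difference between the Dex and Control means on the log2 scale (horizontal axis) for the 13 network probes that were well above background on at least 1 array, with the 95% confidence interval of limma and the brightest probe of each gene in black. Only the intervals of the brighter Mycn probe, from -0.97 to -0.12, and of the brightest Mxd4 probe, from 0.06 to 0.68, do not include 0.

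Odc1, the polyamine enzyme gene among the MYC targets, was read by a pair of probes. The first (chr6:41316638-41316697, rn3) gave 10.07, 9.51, 9.53 and 9.74 log2 units in Control and 10.20, 10.16, 9.45 and 9.63 in Dex. The second (chr6:41318484-41318543) gave 9.63, 9.34, 9.36 and 9.51 in Control and 10.01, 10.19, 9.20 and 9.35 in Dex. With both probes Dex 1 and 2 were above all Control arrays, Dex 3 was below them all and Dex 4 lay within the Control range. The log2 differences were 0.15 with a 95% interval from -0.39 to 0.69 (limma, adjusted p = 0.877) and 0.22 with an interval from -0.35 to 0.80 (limma, adjusted p = 0.815). On the shared slide they were -0.63 and -0.44. Leaving out single arrays moved the first between 0.03 (without Dex 1) and 0.29 (without Dex 3) and the second between 0.06 (without Dex 2) and 0.38 (without Dex 3).

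Other genes of the polyamine pathway showed no joint direction. Of 18 listed genes 14 were on the array, none passed an adjusted p of 0.05, and their median log2 difference was -0.02. Those with an unadjusted p under 0.05 were Azin1, the antizyme inhibitor that protects the Odc1 enzyme from degradation, and Smox, spermine oxidase, which is 2 of 14 genes and near the 10.6% of all probes at that threshold. Azin1 was lower on every Dex array, at 9.95 to 10.46 log2 units against 10.49 to 11.15 in Control, with a difference of -0.66 and an SE of 0.21 (limma, adjusted p = 0.281). Smox was higher on every Dex array, at 11.13 to 11.28 against 10.42 to 10.91, with a difference of 0.43 and an SE of 0.16 (limma, adjusted p = 0.393).

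Well known targets that MYC raises were examined as a list of 44 genes, of which 42 were on the array. None passed, 25 were higher and 17 lower in Dex, and the median log2 difference was 0.07. Hk2, which encodes the glycolytic enzyme hexokinase, and Polr1b, a subunit gene of RNA polymerase I, were the higher genes with an unadjusted p under 0.05, and the translation factor gene Eif4a1, named after its values were seen, was the only lower one. These 3 of 42 genes are no larger a share than the 10.6% of all probes at that threshold. Hk2 gave 4.39 to 4.76 log2 units in Control and 5.08 to 5.92 in Dex, a difference of 0.93 with an SE of 0.22 (limma, adjusted p = 0.144). Polr1b differed by 0.71 with an SE of 0.22 (limma, adjusted p = 0.279), and Eif4a1 by -0.42 (limma, adjusted p = 0.399). In the list 6 of 42 genes had no overlap between groups, against 9.11% of all probes. Hk2 and Polr1b were among them and, like Max and Odc1, were highest on Dex 1 and 2.

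Of 7 genes known to be repressed by MYC, 4 were higher and 3 lower in Dex on average. The stress gene Gadd45a was the 1 that passed, as higher in Dex, where 0.563% of all probes passed as higher. It gave 12.09 to 12.32 log2 units in Control and 12.93 to 13.16 in Dex, a difference of 0.83 with an SE of 0.14 (limma, adjusted p = 0.0484). The call was lost when any single array was left out (limma, adjusted p between 0.0981 and 0.174) and in the fit that blocks on replicate number (limma, adjusted p = 0.195). The list's median was 0.06. Cdkn1b, the gene of the cell cycle inhibitor p27, was named after its values were seen and had a difference of -0.52 (limma, adjusted p = 0.320), the other way from Gadd45a.

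No partner of MYC passed the test (limma, adjusted p under 0.05). Of 22 genes for the MLX branch, MYC-binding proteins, coactivators and corepressors, 18 were found by the names searched, with a median log2 difference of 0.10. The probe counted for Mycbp2 was found only under the name Pam, which another gene also bears, so it cannot be taken to read Mycbp2. It was well above background on 3 Control and 3 Dex arrays. At an unadjusted p under 0.05 were 1 higher and 3 lower genes, against 10.6% of all probes, and 5 did not overlap between the groups, against 9.11%. Hdac1, the histone deacetylase of the corepressor that MXD proteins recruit, differed by -0.62 with an SE of 0.19 (limma, adjusted p = 0.260). Bin1, a MYC-interacting adaptor gene, differed by -0.55 with an SE of 0.17 (limma, adjusted p = 0.261). Both lay lower on every Dex array than on any Control array. Also in this list, Hdac2 and the acetyltransferase gene Kat2a, had an unadjusted p under 0.05, at -0.31 and 0.41, and were named after their values were seen.

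Of 15 genes that set MYC protein stability, 11 were on the array, with a median of -0.05. None passed in limma, and Pim3 and Plk1 had an unadjusted p under 0.05, which is 2 of 11 against 10.6% of all probes. Pim3, a kinase gene whose family phosphorylates and stabilizes MYC, gave 11.21, 11.28, 11.46 and 11.37 log2 units on Control 1 to 4 and 10.68, 10.67, 10.74 and 10.56 on Dex 1 to 4. All Dex arrays lay below all Control arrays, and Dex 1 and 2 did not stand apart from Dex 3 and 4. The difference was -0.67 with an SE of 0.14 (limma, adjusted p = 0.0923). It passed with the normexp correction (-0.60, limma, adjusted p = 0.00175) and without the 3 poorly detecting arrays, where slide and treatment cannot be told apart (-0.72, limma, adjusted p = 0.0441). It also passed with slide as a random block, whose fitted correlation within slides was below 0, at -0.24 (-0.70, limma, adjusted p = 0.0107). It did not with the replicate block (limma, adjusted p = 0.235) or 75th percentile scaling (-0.64, limma, adjusted p = 0.476). With slide as a fixed block, which rests on Dex 3 against Control 1 alone, the difference was -0.48. Plk1, a mitotic kinase gene, differed by -0.46 (limma, adjusted p = 0.345). Of the 17 markers of cycling cells, 15 were lower in Dex, 9 with an unadjusted p under 0.05 against 10.6% of all probes, and none with an adjusted p under 0.05, and their median was -0.41. Cdk1, the mitotic kinase gene of this list, differed by -0.64 (limma, adjusted p = 0.130) and Top2a, a topoisomerase gene of dividing cells, by -0.55 (limma, adjusted p = 0.218).

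**Figure D4:**
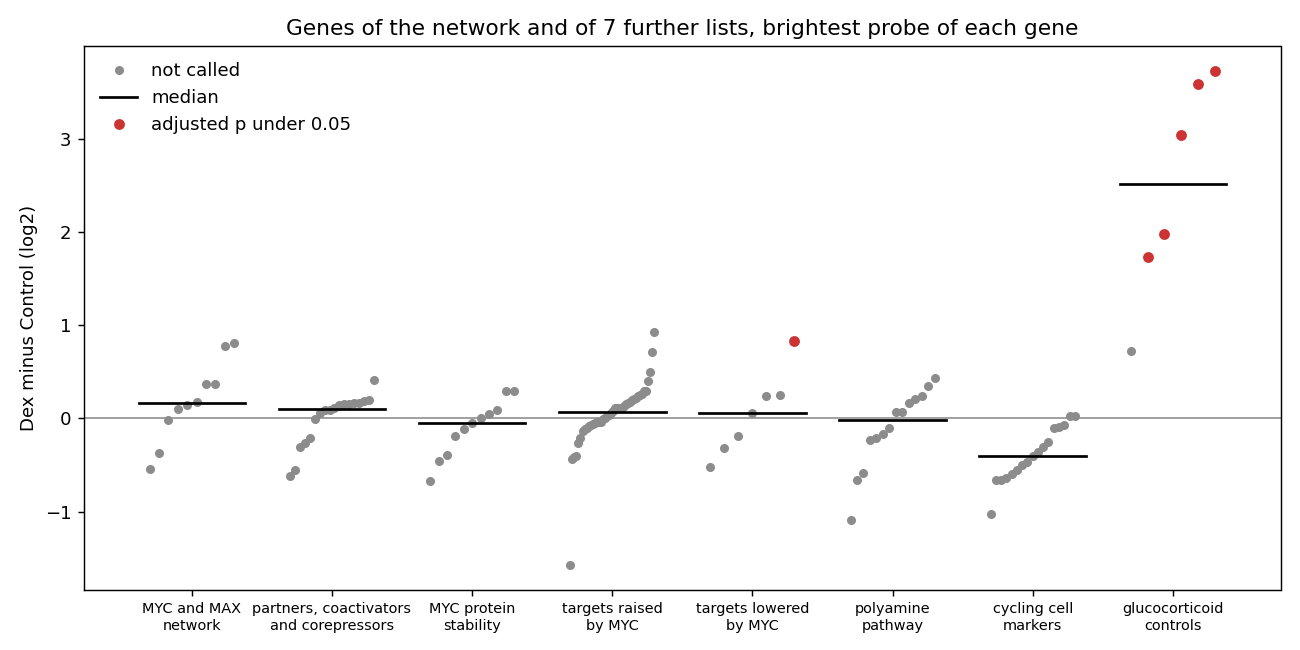
Difference between the Dex and Control means on the log2 scale (vertical axis) for the brightest probe of each gene of the network and of 7 further lists, with a line at each list's median and the genes with an adjusted p under 0.05 in red. Called genes appear in 2 lists, as Gadd45a among the targets lowered by MYC and as 5 of the 6 glucocorticoid controls.

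The genes with the pattern most like that of Myc were found by correlation. Over the 8 arrays and among 8133 genes with a symbol and a signal well above background on every array, high Pearson correlations with Myc were those of Rpl22 (r = 0.942), Rps26 (0.931), Rab3ip (0.924) and Rpl27a (0.916). Rpl22, Rps26 and Rpl27a encode ribosomal proteins, and Rab3ip encodes an exchange factor for Rab proteins. All 4 were highest on Control 1, as Myc was, and their log2 differences between the groups were 0.01 to 0.17, none of which passed the test. The points share their arrays, and the likeness describes these 8 arrays.

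The promoters of the network genes were searched for the E-box CACGTG, the element that MYC and MXD proteins bind with MAX. RefSeq sequences of 250 bases before and 50 bases after the start were held for 8 of the 10 genes, all but Myc and Mycn, in build GRCr8. Max, Mxd4 and Mnt each held 1 match, which is 3 of 8 against 6.42% of all 33469 promoters, on either strand since the motif is its own reverse complement. The glucocorticoid response element, written as the arms GNACA and TGTNC with 3 bases between them and searched on both strands, had no match in the 8 windows and 1 in 0.439% of all promoters. The 250 bases before the start of these 3 genes follow, with the E-box in capitals.
Max upstream region: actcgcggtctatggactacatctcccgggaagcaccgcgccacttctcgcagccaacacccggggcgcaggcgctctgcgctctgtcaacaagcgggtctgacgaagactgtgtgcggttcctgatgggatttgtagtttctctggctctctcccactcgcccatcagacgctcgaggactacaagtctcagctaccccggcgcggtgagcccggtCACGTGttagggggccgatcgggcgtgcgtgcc
Mxd4 upstream region: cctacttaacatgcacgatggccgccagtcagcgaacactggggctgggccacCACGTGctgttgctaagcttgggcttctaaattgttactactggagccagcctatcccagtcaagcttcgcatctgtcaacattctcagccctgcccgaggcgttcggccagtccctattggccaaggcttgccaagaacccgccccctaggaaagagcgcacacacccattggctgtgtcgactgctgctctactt
Mnt upstream region: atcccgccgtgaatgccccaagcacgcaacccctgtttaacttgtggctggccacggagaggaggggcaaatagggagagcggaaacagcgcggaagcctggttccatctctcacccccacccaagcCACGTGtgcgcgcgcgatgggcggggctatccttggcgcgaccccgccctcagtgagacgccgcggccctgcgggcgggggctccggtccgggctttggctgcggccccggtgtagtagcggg
The Max region is chr6:101395291-101395540 on the minus strand, with the E-box 33 to 28 bases before the start. The Mxd4 region is chr14:80786531-80786780 on the plus strand, with the E-box 197 to 192 bases before the start, and the Mnt region is chr10:60197709-60197958 on the plus strand, with the E-box 123 to 118 bases before the start. Max, Mxd4 and Mnt had log2 differences of 0.78, 0.37 and 0.37, and Max was higher on Dex 1 and 2 but Mnt on Dex 3 and 4. A match describes the letters of the window and not a bound site.

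**Figure D5:**
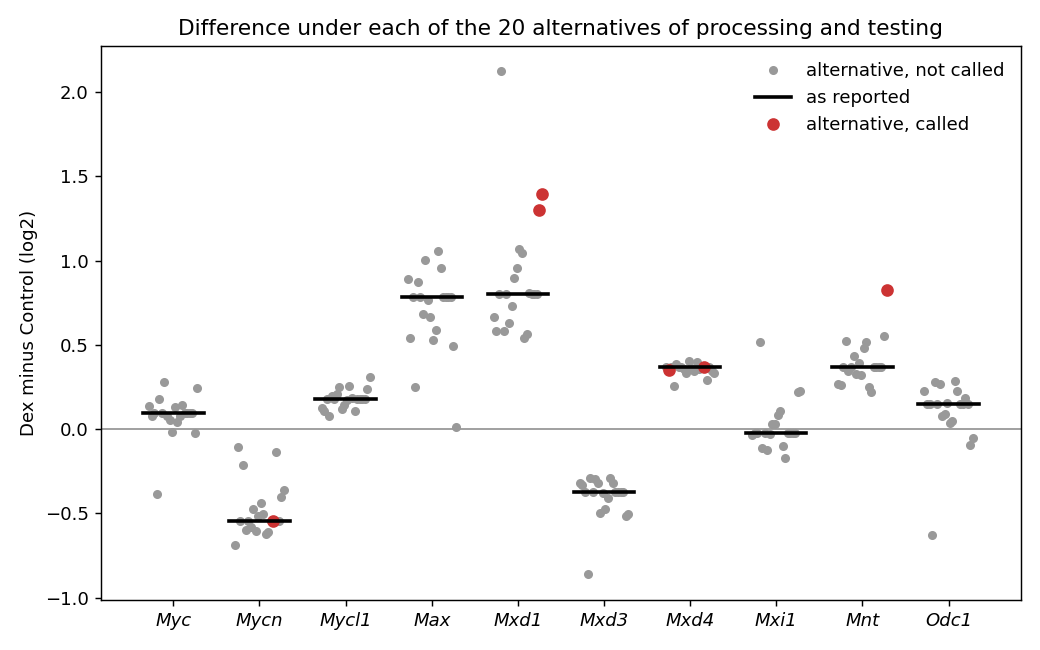
Difference between the Dex and Control means on the log2 scale (vertical axis) of the 10 genes under each of 20 other ways to normalize, filter, block or test (points), with a line at the reported value and alternatives that passed the test in red. Mxd4 stays between 0.25 and 0.40, while Max runs from 0.01 to 1.06 and Mxd1 from 0.54 to 2.12.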

How the data were processed

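The authors hybridized Cy3-labeled RNA to Agilent Whole Rat Genome arrays, of which 4 are labeled Control and 4 Dex, read in 1 color, with spot intensities taken by Feature Extraction version 9.5.3.1, which subtracts the background. The authors also deposited quantile normalized, median polished log2 values. The scanner intensities were processed here in the same way, as log2 values without control spots (43379 other spots per array) and spots marked as outliers, which left 16 missing values. The result correlated with the deposited log2 values at 0.999999 or more on every array. Saturation was absent, and precision is limited by how many arrays there are. Probe positions are those of build rn3 in the deposited headers, and 10735 accessions were named through the RefSeq table.

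Dex was compared with Control by limma (version 3.58.1, R version 4.3.3; lmFit and eBayes, two-sided, no block) over 41012 probes, with Benjamini-Hochberg adjustment at 0.05. The signal to noise statistic was the difference of the means over the sum of the SDs, called at a one-sided nominal p of 0.01, against its values for every probe in each of the 70 assignments of the arrays, taken as 1 pool (the study drew a fixed number of permutations instead), and a fold change of 1.2. Alternatives were scaling to the 75th percentile, normexp (offset 50), leaving out probes not well above background on 4 arrays, slide and replicate blocks, leaving out arrays, the deposited values, and probe means. The procedure was tested on simulated data.

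The members and the lists were chosen with earlier results of these data known. All member probes are named, and of each list the genes that passed (at most the 4 with the largest difference) or else the 2 with the smallest p, and the 5 genes most like Myc, of which 1 is not reported here. Of the glucocorticoid controls only the count and the median are given. Replicate numbers 1 to 4 were taken to pair the cultures, since deviations from the group means correlated at 0.40, 0.13, 0.55 and 0.18 between arrays of the same number. Arrays of unlike number correlated at 0.40 for Control 1 with Dex 2, 0.19 for Control 2 with Dex 1, 0.39 for Control 3 with Dex 4 and 0.07 for Control 4 with Dex 3. The same number was thus the closer for Control 3 and 4 but not for Control 1 and 2. These values do not settle whether cultures were paired by number or only as replicates 1 and 2 against 3 and 4. Lists of macrophage, B cell, stromal and erythroid markers gave summed signals, which the brightest markers dominate, that overlapped between the groups, at 4685 to 6378 and 4360 to 8844 intensity units, 388 to 528 and 263 to 613, 3888 to 5373 and 4982 to 6749, and 261 to 1315 and 259 to 2349 for Control and Dex. Of the single markers, 5 of 9 macrophage, 2 of 5 B cell, 8 of 9 stromal and 3 of 3 erythroid ones were higher in Dex on average, and none passed.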

Additional observations from a re-analysis of the deposited data

How the results depend on the processing

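Over 20 alternatives for each of the 10 network genes, 181 of 200 values kept the direction and the side of the threshold. No network gene passed in the reported fit, so the same side here means not passing. Leaving out dim probes, the signal to noise statistic and the blocks built on replicate numbers leave the difference as it is. Probe means do so for genes with 1 probe, so the direction of these values could not change. With slide as a fixed block the difference is that of Dex 3 and Control 1 alone, whose slide held both groups. Reversed were Myc with slide as a fixed block (-0.39), without Control 4 (-0.018, within a range of -0.018 to 0.28 over single arrays left out) and with the number of probes well above background as a covariate (-0.023), Mxi1 with these block and covariate settings (0.52 and 0.22), without Control 3, Control 4, Dex 1 or Dex 2 (0.03 to 0.11, within a range of -0.17 to 0.11) and with the 3 arrays under 30000 such probes left out (0.23), and Odc1 with the block, the covariate and those arrays left out (-0.63, -0.10 and -0.054). Without single arrays Mnt ranged from 0.22 to 0.52, Odc1 from 0.03 to 0.29 and Mycl1 from 0.11 to 0.26. The cause was not tested. The covariate, the left-out arrays and a block of replicates 1 and 2 against 3 and 4 were added after the data were seen.

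No network gene passed with or without the replicate block, which says nothing of their stability, and the block lowered the probes that passed from 319 to 81. That count was 166 with 75th percentile scaling, 915 with normexp (497 higher and 418 lower, against 231 and 88), 1 and 1838 with slide as a fixed and a random block, 2784 with the signal to noise statistic, 670 with the added block, 1090 with the covariate (449 higher and 641 lower), 4671 without the 3 arrays (2197 and 2474), and 96 to 249 without single arrays. The network genes called were 1 with normexp, 2 with the signal to noise statistic, 1 with the covariate and 2 without the 3 arrays, and 0 whichever single array was left out.

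The signal to noise statistic called 4 of 18 partner genes, 2 of 11 stability genes and 3 of 42 raised targets. It also called 2 of 7 repressed targets, 2 of 14 polyamine genes and 6 of 17 cycling cell markers, against 6.79% of all probes. Normexp called 2 partners, 1 stability gene and 1 cycling marker, against 2.23% of all probes. Slide as a random block called 1 stability gene, 2 raised targets, 2 repressed targets and 2 cycling markers, against 1838 of 41012 probes. The covariate called 1 stability gene, 1 polyamine gene and 2 cycling markers, against 2.66% of all probes. The added block called 1 stability gene and 1 cycling marker, against 670 of 41012 probes. Leaving out the 3 arrays called 1 gene each among stability genes, raised targets, polyamine genes and cycling markers, against 11.4% of all probes. The 1 repressed target fell to 0 with 75th percentile scaling, slide as a fixed block, the replicate block, probe means and whichever single array was left out. Of the glucocorticoid controls 3 passed with 75th percentile scaling and 0 with slide as a fixed block. Near background, as for Mycn, a difference rests on the background correction.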
